A study of Mus musculus with 8 samples.

Results

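The 32 genes described here lie on mouse chromosome 5 within 5 Mb of *Kl*, the gene for Klotho (chr5:150952607-150993817 of mm10, plus strand). They are the counted genes whose span overlaps chr5:145952607-155993817, a rule of position that uses no measured value, except that 2 genes of that region were left out by name. They are 32 of the 12551 genes counted, against 770 on the rest of chromosome 5, which include the 2 left out, and 11749 on other chromosomes. RNA was sequenced from whole tibialis anterior (TA) muscle, a fast hindlimb muscle, of 4 wild-type (WT) and 4 homozygous Klotho mutant (KL-/-) mice, males of 7 weeks that the series' design text calls littermates. The mutant line was bred from heterozygous Klotho mice of mixed background obtained from a supplier, and every tissue of a KL-/- mouse carries the mutated allele. A KL-/- mouse is also expected to be homozygous for the stretch of chromosome 5 that is inherited with that allele, so differences in this region between genotypes that come from the linked sequence and those that come from the loss of Klotho cannot be told apart here. *Kl* itself is not among the counted genes, so these counts cannot check the genotypes, which are taken from the sample labels. The study typed its mice by PCR and reported that *Kl* mRNA and Klotho protein could not be detected in KL-/- muscle. Reads were given as counts per gene, between 20860262 and 29273758 per library, and values are given below as counts per 1e6 counts (CPM), scaled with TMM factors. A count of 3 corresponded to 0.102 to 0.144 CPM. Each mouse gave 1 library. The labels put 7 libraries in 1 batch by date and KL-/- replicate 3 in another, so for that mouse the batch and the animal cannot be told apart. KL-/- replicate 2 differed most from the others of its genotype, with a chi-square per gene of 60.3 to 84.4 against them, where the other pairs within a genotype gave 9.91 to 45.9. All 6 skeletal muscle markers (*Acta1*, *Ckm*, *Myh4*, *Tnnt3*, *Atp2a1* and *Myod1*) were detected in every sample. None of them passed the test between genotypes, 5 of 6 had a positive log2 fold change, and their summed level was 118000 to 133000 CPM in WT and 143000 to 180000 CPM in KL-/- samples, without overlap.

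Klotho is a membrane protein made mainly in the kidney, the parathyroid gland and the choroid plexus, where it serves as a co-receptor for the hormone FGF23, and its extracellular part is also found in blood. Mice without it have high serum phosphate, age early and lose muscle. Genes near a mutated locus have no common function, but they share the chromosome that was bred along with the mutation, and neighbours can share regulatory sequence or, where they overlap, reads. The region before *Kl* (toward the start of the chromosome) holds genes of RNA polymerases, mRNA deadenylation, the proteasome, cohesin and leukotriene synthesis. The RefSeq annotation of GRCm38.p6, the same assembly as mm10, lists 157 genes in the region, of which 56 are protein-coding, and 30 of those 56 were counted. Its last gene on chromosome 5 ends at 151700308, so the side after *Kl* is short. 29 of the 32 genes lay before *Kl* and 3 after it. Of the 32, 28 were protein-coding, 3 were long noncoding RNAs (*5930430L01Rik*, *Gm15408* and *Gm3704*) and *Gm8615* was a transcribed pseudogene.

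The sequences just before the start sites are shown for the 4 genes that were higher in KL-/- muscle. Of the genes that were lower, only *Pds5b*, the nearest gene before *Kl*, is shown. Each sequence holds the 250 bases before the RefSeq start on the gene's own strand, from GRCm38.p6. Such an entry existed for 28 of the 32 genes. Capitals mark exact matches, on either strand, of the TATA box (TATAAA), the CCAAT box, the GC box (GGGCGG), the E-box (CACGTG), the cAMP response element (TGACGTCA) and the NRF1 palindrome. *Gm3704* is at chr5:151406254-151406503 (plus strand), *5930430L01Rik* at chr5:148995215-148995464 (minus), *Pan3* at chr5:147429906-147430155 (plus, 424 bases upstream of where its counted span begins), *Fry* at chr5:150259680-150259929 (plus) and *Pds5b* at chr5:150673577-150673826 (plus).
Gm3704: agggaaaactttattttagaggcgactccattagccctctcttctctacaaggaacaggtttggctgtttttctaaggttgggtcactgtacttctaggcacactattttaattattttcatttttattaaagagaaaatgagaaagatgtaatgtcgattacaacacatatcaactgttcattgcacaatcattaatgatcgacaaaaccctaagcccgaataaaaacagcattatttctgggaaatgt
5930430L01Rik: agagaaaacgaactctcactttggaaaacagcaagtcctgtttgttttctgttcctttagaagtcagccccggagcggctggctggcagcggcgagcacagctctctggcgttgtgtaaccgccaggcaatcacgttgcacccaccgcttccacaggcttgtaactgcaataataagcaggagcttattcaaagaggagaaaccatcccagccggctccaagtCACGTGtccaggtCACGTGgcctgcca
Pan3: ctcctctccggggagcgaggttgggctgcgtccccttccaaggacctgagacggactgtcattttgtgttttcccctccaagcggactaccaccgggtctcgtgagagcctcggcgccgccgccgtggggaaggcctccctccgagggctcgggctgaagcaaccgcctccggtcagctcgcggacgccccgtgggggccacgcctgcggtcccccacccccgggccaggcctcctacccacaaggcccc
Fry: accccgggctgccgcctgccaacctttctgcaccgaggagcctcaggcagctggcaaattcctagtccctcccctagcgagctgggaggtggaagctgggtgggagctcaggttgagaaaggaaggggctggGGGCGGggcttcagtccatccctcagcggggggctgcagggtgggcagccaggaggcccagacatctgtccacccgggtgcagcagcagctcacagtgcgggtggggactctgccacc
Pds5b: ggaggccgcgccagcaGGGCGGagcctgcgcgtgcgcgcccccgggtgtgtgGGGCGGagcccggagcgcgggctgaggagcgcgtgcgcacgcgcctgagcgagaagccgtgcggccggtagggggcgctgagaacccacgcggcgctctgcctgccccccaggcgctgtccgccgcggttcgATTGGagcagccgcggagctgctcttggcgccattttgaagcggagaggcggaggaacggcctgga

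These sequences had little in common. The *Gm3704* sequence was 34.8% G and C and held none of the 6 motifs, whereas *Pds5b* was at 75.6% with the GC box at 2 places and the CCAAT box, read on the other strand, at 1. *Pan3* was also rich in G and C, at 71.2%, and held no match, and *Fry*, at 67.6%, held 1 GC box. In *5930430L01Rik*, at 54.0%, the E-box stood 2 times with 7 bases between the copies, and the second copy ended 8 bases before the start site. At least 2 copies of CACGTG were found in 141 of 32851 RefSeq promoters of this length (0.429%). Over the 28 genes with an entry, the median was 62.6% G and C, against 52.4% over all promoters. All promoters here include those of genes not counted in this muscle, and values over the counted genes alone were not computed. The differences below are therefore not shown to be particular to this region. GGGCGG was found in 14 of the 28 and in 32.7% of all promoters, CCAAT in 7 of 28 against 33.8%, TATAAA in 3 of 28 against 12.4%, CACGTG in 3 of 28 against 6.02%, TGACGTCA in 2 of 28 against 1.55% and the NRF1 palindrome in 0 of 28 against 0.782%. CACGTG, TGACGTCA and the NRF1 palindrome read the same on both strands and were counted once at each place.

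To find whether transcripts around *Kl* differed between genotypes, KL-/- was compared with WT over all genes with edgeR's quasi-likelihood test, with a false discovery rate (FDR) after Benjamini-Hochberg. 9 of the 32 genes had an FDR under 0.05, beside 14.0% of all genes tested. 4 were higher in KL-/- muscle (*Gm3704*, *5930430L01Rik*, *Pan3* and *Fry*), beside 7.35% of all genes, and 5 were lower (*Alox5ap*, *B3glct*, *Lnx2*, *Hmgb1* and *Pds5b*), beside 6.67%. The other 23 did not pass, which does not show that they were equal. In 11 genes the values of the genotypes did not overlap, beside 19.7% of all genes. In 4 of them KL-/- lay above WT (10.2% of all genes) and in 7 below (9.47%). The count with an FDR under 0.05 was 9 without KL-/- replicate 2, where 22.0% of all genes passed, and 4 without KL-/- replicate 3, where 6.07% did (*Gm3704*, *Fry*, *Alox5ap* and *Hmgb1*). It was 1 without KL-/- replicate 4 (6.20% of all genes), 2 without WT replicate 2 (6.21%) and 3 without WT replicate 3 (6.17%). It was 6 without KL-/- replicate 1 (9.75%), 5 without WT replicate 1 (9.51%) and 6 without WT replicate 4 (10.9%). *Gm3704* alone passed in all 8 fits that left out a library, though it had only 5 to 20 reads in the WT libraries.

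The 32 genes did not move in a common direction. 16 had a positive and 16 a negative log2 fold change, and the median was -0.009, against -0.016 over all genes. The size of the change, regardless of sign, had a median of 0.226 on the log2 scale, against 0.189 over the rest of chromosome 5 and 0.182 over all genes. Summed over the 32 genes, the level was 849.3 to 890.8 CPM in WT and 839.3 to 927.7 CPM in KL-/- samples, which overlapped.

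**Figure D1:**
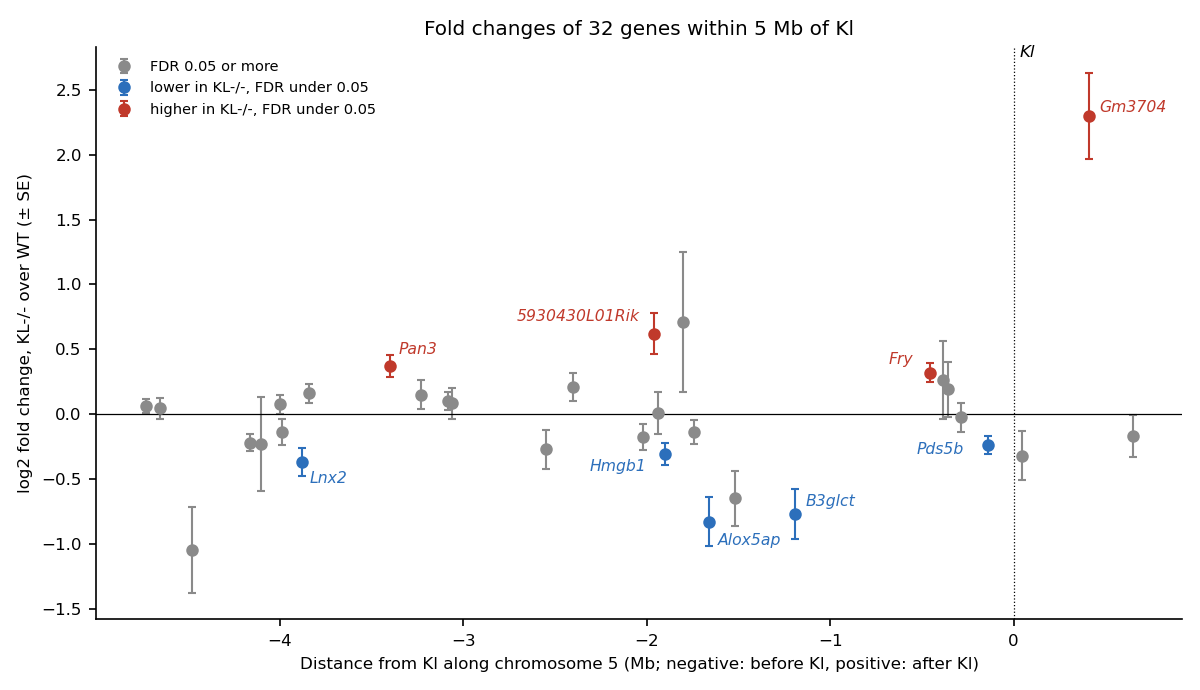
Each point is 1 of the 32 genes, with its distance from Kl in Mb on the horizontal axis (negative before Kl, 0 at Kl) and the log2 fold change of KL-/- over WT with its standard error on the vertical axis. Red and blue mark an FDR under 0.05, higher and lower in KL-/-. Gm3704, after Kl, stands at 2.30, and the other 31 genes lie between -1.05 and 0.71.

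By distance, 3 of the 8 genes under 1 Mb from *Kl* had an FDR under 0.05 (37.5%), 4 of the 10 between 1 and 2.5 Mb (40.0%) and 2 of the 14 between 2.5 and 5 Mb (14.3%). These are shares of the 32 genes, and the 2 genes left out by name are in none of the bins. Farther along chromosome 5 the shares were 4 of 44 between 5 and 10 Mb (9.09%), 56 of 372 between 10 and 50 Mb (15.1%) and 53 of 352 beyond (15.1%). Over the rest of chromosome 5, with the 2 left-out genes included, it was 115 of 770 (14.9%). The median size of the log2 fold change was 0.25, 0.468 and 0.157 in the 3 bins around *Kl*, and 0.173, 0.18 and 0.197 in the 3 bins beyond. The bins also differed in level. The median average log2 CPM was 2.45 under 1 Mb, 3.24 between 1 and 2.5 Mb and 4.16 between 2.5 and 5 Mb, and the median standard error of the log2 fold change was 0.175, 0.159 and 0.093. Across the 32 genes the size of the log2 fold change had a Spearman correlation of -0.28 with distance from *Kl* and -0.42 with the average log2 CPM, and that of distance with level was 0.15. These are descriptions over genes that share 8 libraries and are not independent, and the part of the level in the pattern by distance was not tested.

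**Figure D2:**
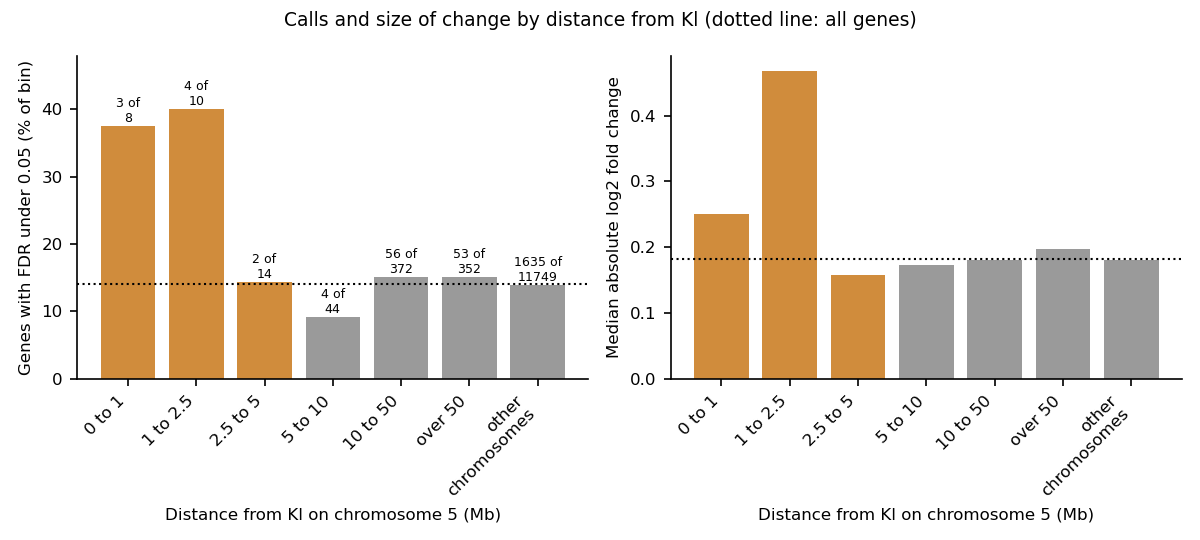
The left panel gives the percent of genes with an FDR under 0.05, and the right panel the median absolute log2 fold change, in bins of distance from Kl in Mb along chromosome 5 and on other chromosomes. Orange bars hold the 32 genes and grey bars the genes farther away or on other chromosomes. The 2 genes left out by name are in no bar, and the dotted line is the value of all genes (14.0% and 0.182). The first and second bars are the highest in both panels, with 8 and 10 genes behind them.

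**Figure D3:**
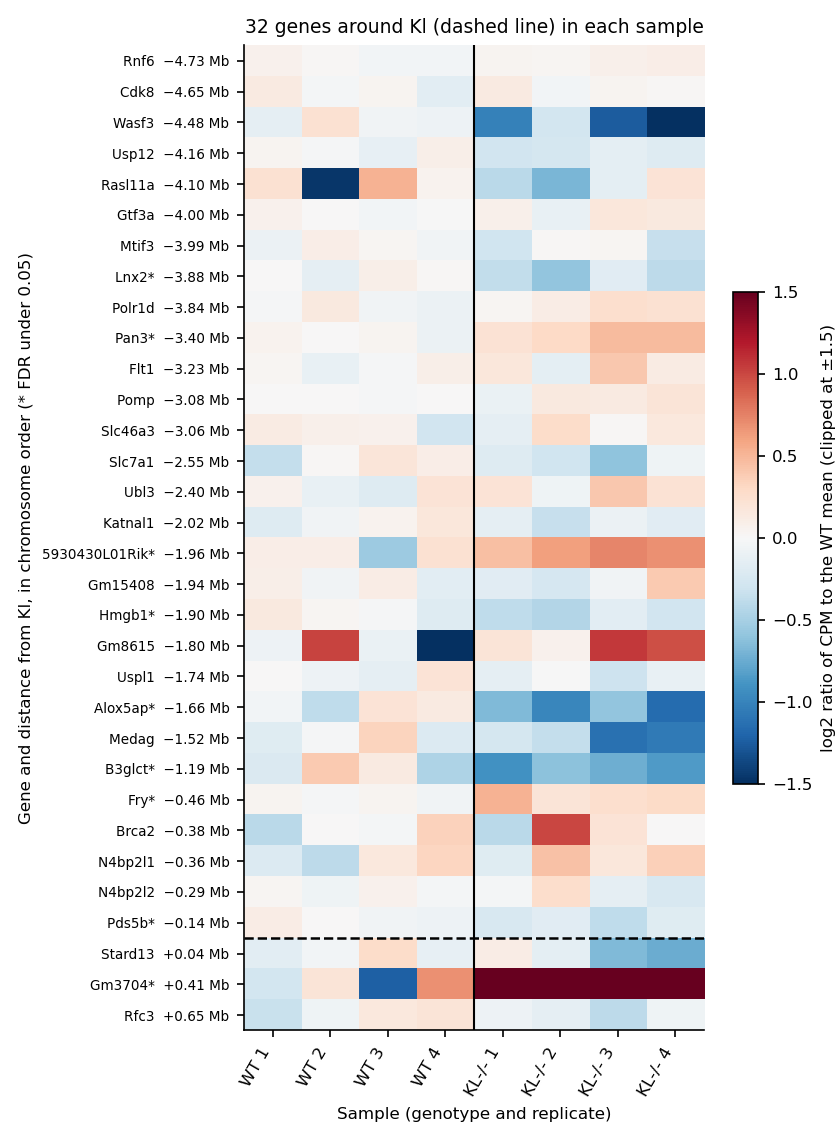
Rows are the 32 genes in chromosome order with their distance from Kl, columns are the 8 samples, and colour is the log2 ratio of a sample's CPM to the WT mean of that gene, cut at 1.5 either way. The dashed line is the place of Kl and the solid line separates WT from KL-/-. Gm3704 is dark red in all 4 KL-/- samples, Alox5ap and B3glct are blue in all 4, and rows with low counts such as Gm8615 and Rasl11a vary within both genotypes.

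Of the 8 genes within 1 Mb, *Gm3704* changed by far the most. It is a long noncoding RNA gene 413 kb after *Kl* (chr5:151406504-151432118, plus strand), with the A- and T-rich start shown above, and the annotation gives it no role. The 4 WT libraries held 9, 11, 5 and 20 of its reads, and the 4 KL-/- libraries 67, 31, 56 and 71. In CPM these were 0.367, 0.509, 0.191 and 0.717 in WT and 2.34, 1.48, 2.32 and 2.68 in KL-/-. The genotypes were far apart, and the lowest KL-/- value, replicate 2, was still above the highest WT value, replicate 4. The means were 0.446 ± 0.223 CPM in WT and 2.2 ± 0.51 CPM in KL-/- (SD, n = 4), which was a log2 fold change of 2.30 (standard error, SE, 0.33, FDR = 0.00492), or 4.92 times the WT level. It ranked 12 among all 12551 genes by log2 fold change. The log2 fold change was 2.04 to 2.66 and the FDR 0.00234 to 0.0183 over the 8 fits with a library left out, 2.28 without KL-/- replicate 3, of the other batch date. All of its counted bases (100%) are exons of *1700028E10Rik* in GENCODE, a processed transcript on the same strand, taken here as another name for this locus. On the other strand, *D730045B01Rik* shares 2.25% of them and the protein-coding *Gm42906* 1.95%. Without strand, reads on those bases cannot be separated.

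*Fry*, 455 kb before *Kl* (chr5:150259930-150497753, plus strand), encodes a very large scaffold protein of the NDR kinases. Its level was 101, 96.7, 101 and 94.7 CPM in WT and 141, 112, 117 and 120 CPM in KL-/- samples. The genotypes did not overlap, and KL-/- replicate 1 was the highest by a wide margin. The mean rose from 98.2 ± 3.01 to 123 ± 12.7 CPM (SD, n = 4), which was a log2 fold change of 0.32 (SE 0.075, FDR = 0.024). Without KL-/- replicate 1 it was 0.26 with an FDR of 0.0309. The FDR was over 0.05 without KL-/- replicate 4 (0.0568) and without WT replicates 2, 3 and 4 (0.0665, 0.0562 and 0.0522), while the log2 fold change remained between 0.26 and 0.37. Of 6 genes of the NDR kinases, their MOB partners and the paralog *Fryl*, only *Mob1b*, a kinase activator, passed, and it fell (log2 fold change -0.32, FDR = 0.0155). *Fryl* had a log2 fold change of -0.03 (FDR = 0.863).

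*Pds5b*, 142 kb before *Kl* (chr5:150673827-150810669, plus strand), encodes a regulator of cohesin, the ring complex that holds sister chromatids together and forms chromatin loops. It was at 65.2, 61, 58.3 and 57.3 CPM in WT and 51.3, 53.6, 46.6 and 53.4 CPM in KL-/- samples. Every KL-/- value lay below every WT value, the nearest being KL-/- replicate 2 and WT replicate 4. It fell from 60.4 ± 3.54 to 51.2 ± 3.25 CPM (SD, n = 4), with a log2 fold change of -0.24 (SE 0.068, FDR = 0.0449). The call was not stable, since it was kept in 1 of the 8 fits with a library left out (FDR = 0.0342, without KL-/- replicate 2). The FDR was between 0.0532 and 0.118 in the other 7, while the log2 fold change remained between -0.26 and -0.20 in all 8. Of 10 other cohesin genes measured, *Stag2*, a core subunit, rose (log2 fold change 0.29, FDR = 0.0444) and none fell. The paralog *Pds5a* was at 38.6 ± 2.28 and 36.2 ± 1.51 CPM, with an FDR of 0.343.

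The other genes nearest to *Kl* gave no call. *Stard13*, a GTPase-activating protein with a START domain, is the nearest of all, 43.7 kb after *Kl* (chr5:151037515-151190193, minus strand). Its values were 10.9, 11.9, 14.7 and 11.2 CPM in WT and 13.1, 11, 7.71 and 7.31 CPM in KL-/- samples. KL-/- replicates 3 and 4 lay below all WT samples and replicates 1 and 2 did not, giving a log2 fold change of -0.32 (SE 0.19, FDR = 0.277). 5.84% of its counted bases are shared with *Gm42906* on the same strand. The related *Stard8* and *Dlc1* did not pass either (FDR = 0.193 and 0.968).

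*N4bp2l2*, 287 kb before *Kl* and near *Pds5b*, was at 19.1, 17.9, 19.8 and 18.4 CPM in WT and 18.4, 22.6, 17.1 and 15.9 CPM in KL-/- samples, a log2 fold change of -0.025 (SE 0.11, FDR = 0.894). The start sites of *N4bp2l2* and *Pds5b* are 8215 bases apart on opposite strands. *N4bp2l1*, its paralog at 358 kb, was at 1.88, 1.67, 2.44 and 2.73 CPM in WT and 1.92, 2.96, 2.45 and 2.79 CPM in KL-/- samples (log2 fold change 0.19, SE 0.21, FDR = 0.55). In both genes the genotypes overlapped. *Brca2*, the homologous recombination gene at 382 kb, stood at 1.79 ± 0.373 and 2.2 ± 0.962 CPM (SD, n = 4), with an FDR of 0.579. *Rfc3*, a subunit of the clamp loader that places PCNA on DNA, is 649 kb after *Kl* and the last counted gene of the chromosome. Its values of 2.2, 2.64, 3.09 and 3.16 CPM in WT and 2.62, 2.53, 2.11 and 2.64 CPM in KL-/- samples overlapped (log2 fold change -0.17, SE 0.16, FDR = 0.503). None of 6 measured genes of replication factor C and PCNA passed.

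**Figure D4:**
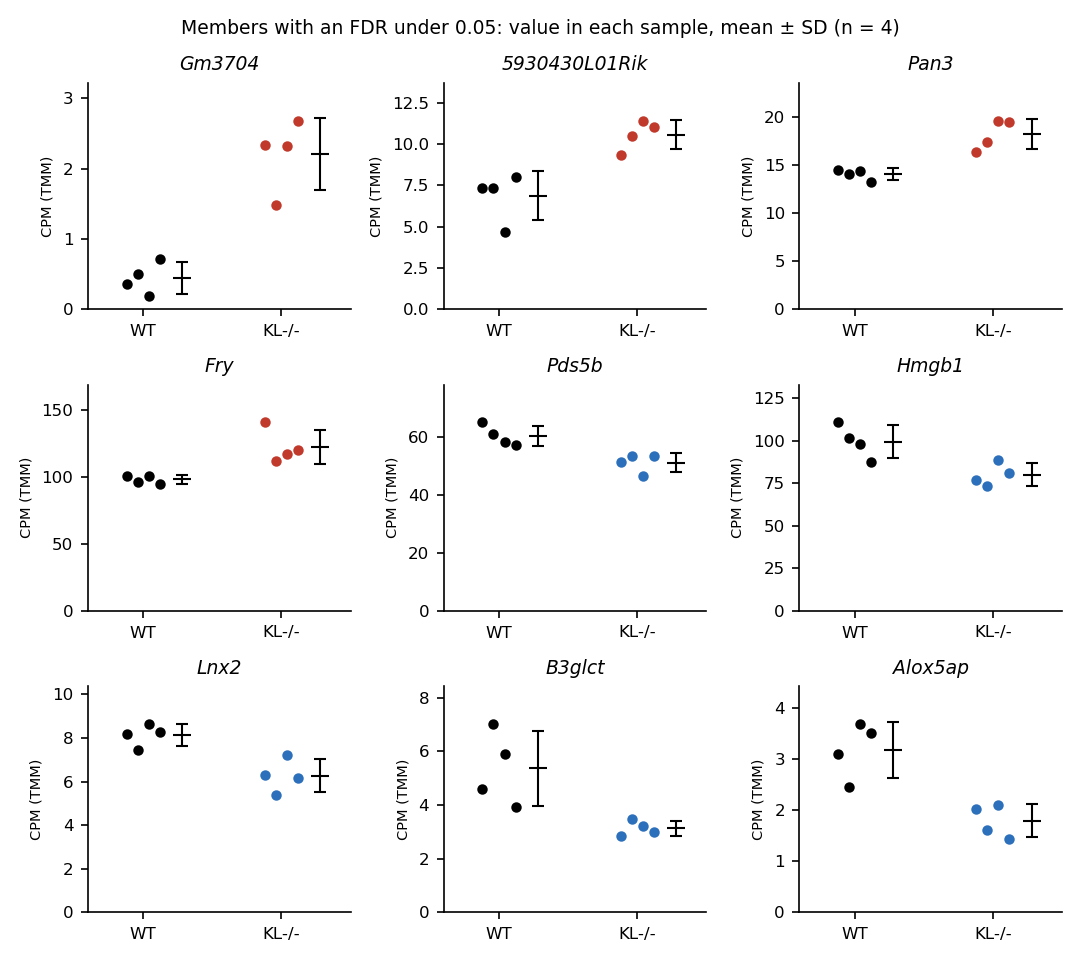
Each panel is 1 of the 9 genes with an FDR under 0.05, with CPM (TMM-scaled, from 0) on the vertical axis, a point for each sample, and the mean ± SD beside it (n = 4). WT is black, and KL-/- is red where higher and blue where lower. The genotypes are apart in 8 panels, and in Hmgb1 the highest KL-/- sample (88.9 CPM) passes the lowest WT sample (87.4 CPM).

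Between 1 and 2.5 Mb, all before *Kl*, 1 of 10 genes rose and 3 fell. *Alox5ap* (chr5:149265004-149288153, plus strand, 1.66 Mb away) encodes FLAP, the membrane protein that presents arachidonic acid to 5-lipoxygenase in leukotriene synthesis, and is known mainly from leukocytes. It was at 3.1, 2.45, 3.7 and 3.51 CPM in WT and 2.02, 1.62, 2.11 and 1.43 CPM in KL-/- samples. No KL-/- sample reached the lowest WT sample. It fell from 3.19 ± 0.553 to 1.8 ± 0.324 CPM (SD, n = 4), which was a log2 fold change of -0.83 (SE 0.19, FDR = 0.0215), and it kept its call in 6 of the 8 fits with a library left out. The exceptions were the fits without KL-/- replicate 4 (FDR = 0.0619) and without WT replicate 3 (FDR = 0.0631). An antisense gene, *Gm19719*, overlaps 18.6% of its counted bases, and whether the counting used strand is not given in the sources used here.

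Leukocyte markers were examined beside *Alox5ap*. Of 12 macrophage and other leukocyte markers, 11 had a negative log2 fold change and 3 fell (*Adgre1*, *Itgam* and *Laptm5*, at -1.52, -1.16 and -0.88), with a median of -0.88, and none rose. Their summed level was 74.8 to 154 CPM in WT and 51.6 to 90.4 CPM in KL-/- samples, and none was at 0. In whole muscle, fewer cells of a type and less RNA per cell cannot be told apart, and the part of leukocytes in the *Alox5ap* value was not tested. Of 3 other leukotriene synthesis genes measured none passed. *Alox5*, the lipoxygenase itself, stood at 0.606 ± 0.202 and 0.396 ± 0.277 CPM (FDR = 0.466), and *Lta4h*, the hydrolase that makes leukotriene B4, at 22.1 ± 1.39 and 21.1 ± 1.1 CPM (FDR = 0.553).

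**Figure D5:**
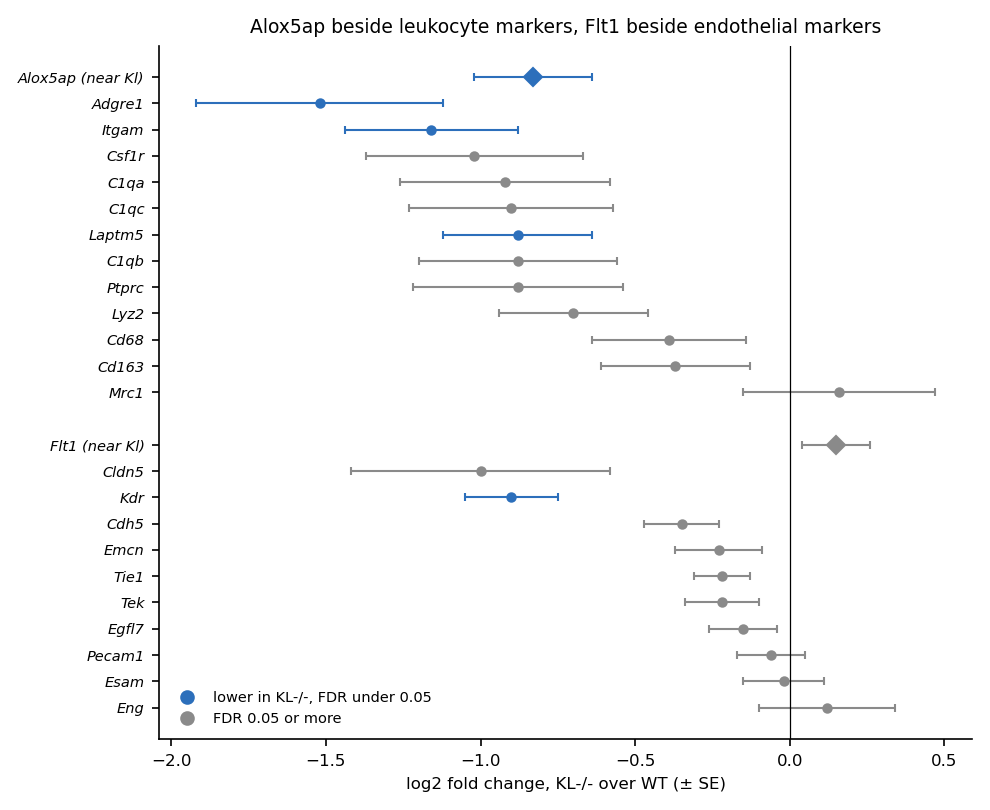
Points are log2 fold changes of KL-/- over WT with standard errors (horizontal axis) for Alox5ap above 12 leukocyte markers and for Flt1 above 10 endothelial markers. Blue marks an FDR under 0.05. Alox5ap, at -0.83, lies near the leukocyte median of -0.88. Flt1, at 0.15 (SE 0.11), lies right of all 10 endothelial markers, but its error overlaps that of the nearest, Eng, at 0.12 (SE 0.22). Kdr, at -0.90, is the only endothelial marker in blue.

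*B3glct* (chr5:149678257-149762599, plus strand, 1.19 Mb away) encodes the enzyme that adds glucose to O-linked fucose on thrombospondin repeats of secreted proteins. It was at 4.61, 7.03, 5.91 and 3.91 CPM in WT and 2.86, 3.48, 3.23 and 2.98 CPM in KL-/- samples. The WT samples spread widely while the KL-/- samples lay close together below all of them. It fell from 5.37 ± 1.39 to 3.14 ± 0.278 CPM (SD, n = 4), which was a log2 fold change of -0.77 (SE 0.19, FDR = 0.0283). The call was kept in 3 of 8 fits with a library left out, those without KL-/- replicate 2, WT replicate 1 and WT replicate 4. The FDR was 0.0657 to 0.0771 in the other 5, with log2 fold changes of -0.79 to -0.62.

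*Hmgb1* (chr5:149047227-149053037, minus strand, 1.90 Mb away) encodes an abundant chromatin protein with HMG boxes that acts as an alarm signal outside cells. It was at 111, 102, 98.2 and 87.4 CPM in WT and 76.8, 73.4, 88.9 and 81.4 CPM in KL-/- samples. KL-/- replicate 3 lay above WT replicate 4, so the genotypes overlapped. It fell from 99.6 ± 9.73 to 80.1 ± 6.73 CPM (SD, n = 4), which was a log2 fold change of -0.31 (SE 0.086, FDR = 0.0405). Only the fits without KL-/- replicate 3 (FDR = 0.0448) and without WT replicate 4 (FDR = 0.0266) kept the call, and the other 6 gave an FDR of 0.063 to 0.0992. Its paralogs *Hmgb2* and *Hmgb3* stood at -0.15 and 0.16 and did not pass. *Hmgb1* has processed copies elsewhere in the genome, and reads that map to several of them could be assigned differently.

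*5930430L01Rik* (chr5:148990056-148995215, minus strand, 1.96 Mb away) is the long noncoding RNA gene whose start carries the pair of E-boxes. It was at 7.35, 7.35, 4.69 and 8.03 CPM in WT and 9.35, 10.5, 11.4 and 11 CPM in KL-/- samples. All KL-/- samples were above all WT samples, with WT replicate 3 well below the rest. It rose from 6.86 ± 1.48 to 10.6 ± 0.885 CPM (SD, n = 4), which was a log2 fold change of 0.62 (SE 0.16, FDR = 0.0313). Without WT replicate 3 the log2 fold change was 0.48 (FDR = 0.0364). The FDR was over 0.05 without KL-/- replicates 3 and 4 (0.0837 and 0.0825) and without WT replicates 1 and 2 (0.0547 and 0.0648). *Gm15408*, the other long noncoding RNA gene of this stretch, whose start is 11747 bases away on the opposite strand, had equal means of 3.69 CPM in both genotypes (FDR = 0.98).

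*Medag*, named for its part in the forming of fat cells, is at 1.52 Mb. It was at 12.3, 13.7, 17.5 and 12.1 CPM in WT and 11.6, 10.8, 6.38 and 6.67 CPM in KL-/- samples. The genotypes did not overlap, but KL-/- replicates 1 and 2 lay just below WT and replicates 3 and 4 at a much lower level, and the test was not passed (log2 fold change -0.65, SE 0.21, FDR = 0.0693). The FDR was 0.0491 without KL-/- replicate 1 and 0.0475 without KL-/- replicate 2. 50.5% of its counted bases are shared with *Gm20488* on the same strand. Of 6 fibro-adipogenic markers, 3 fell (*Dcn*, *Lum* and *Dpt*, at -0.94, -1.32 and -1.21), all 6 were negative, with a median of -1.24 and none at 0, and their summed level was 732 to 2880 CPM in WT and 374 to 1280 CPM in KL-/- samples. The part of these cells in the *Medag* value was not tested. Of the 3 adipocyte markers measured, *Fabp4* rose (log2 fold change 0.27, FDR = 0.03) and none fell. *Adipoq* (means of 1.53 and 4.28 CPM in WT and KL-/-) and *Cidec* (1.22 and 4.33 CPM) did not pass (FDR = 0.218 and 0.181). The sum was 179 to 199 CPM in WT and 206 to 252 CPM in KL-/- samples. Most of it was *Fabp4* (187 and 225 CPM), so the sum says little of the other markers.

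The rest of this stretch had log2 fold changes from -0.18 to 0.71 and passed no test. *Uspl1*, a SUMO protease, stood at 37 ± 3.93 and 33.5 ± 2.85 CPM (FDR = 0.308). *Katnal1*, related to the katanin that severs microtubules, stood at 10.6 ± 1.13 and 9.38 ± 0.721 CPM (FDR = 0.252), and none of 3 measured katanin genes passed. The pseudogene *Gm8615* varied from 0.0717 to 1.48 CPM within WT and its log2 fold change was 0.71 (SE 0.54, FDR = 0.389).

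*Ubl3*, a ubiquitin-like protein attached to membranes, is 2.40 Mb away and the most abundant of this stretch in CPM. It was at 118, 104, 98.7 and 129 CPM in WT and 130, 108, 150 and 131 CPM in KL-/- samples. 3 of the KL-/- values were the highest of all 8, but replicate 2 lay among the WT samples (log2 fold change 0.21, SE 0.11, FDR = 0.231).

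Between 2.5 and 5 Mb, 1 of 14 genes rose and 1 fell. *Pan3* (chr5:147430580-147548501, plus strand, 3.40 Mb away) encodes the subunit that brings the deadenylase Pan2 to the poly(A) tails of mRNA. It was at 14.5, 14.1, 14.4 and 13.2 CPM in WT and 16.4, 17.4, 19.6 and 19.5 CPM in KL-/- samples. The WT samples were within a narrow range, and all KL-/- samples were above it. It rose from 14.1 ± 0.612 to 18.2 ± 1.58 CPM (SD, n = 4), which was a log2 fold change of 0.37 (SE 0.083, FDR = 0.0204). Over the fits with a library left out it was 0.34 to 0.43, and the FDR was over 0.05 without KL-/- replicates 3 or 4 (0.061 in each) and without WT replicate 2 (0.0552).

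Its partner *Pan2* had means of 14.1 ± 0.362 (WT) and 16.9 ± 1.45 CPM (KL-/-; SD, n = 4), also with no overlap, and missed the threshold (log2 fold change 0.26, FDR = 0.0566). Of 17 measured genes of Pan2, the CCR4-NOT complex, *Parn* and the TOB and BTG proteins that recruit deadenylases, 2 rose and 1 fell. All 3 were of the recruiting proteins. *Btg2* rose with a log2 fold change of 1.69 (FDR = 0.0125) and *Tob2* with 0.92 (FDR = 0.0496), and *Tob1* fell by 0.30 on the log2 scale (FDR = 0.0278). None of the 10 measured CCR4-NOT genes whose symbol begins with *Cnot* passed.

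*Lnx2* (chr5:147016655-147076572, minus strand, 3.88 Mb away) encodes a ubiquitin ligase with PDZ domains that binds Numb. It was at 8.17, 7.45, 8.65 and 8.25 CPM in WT and 6.31, 5.39, 7.21 and 6.18 CPM in KL-/- samples, so all KL-/- samples were below all WT samples. It fell from 8.13 ± 0.502 to 6.27 ± 0.746 CPM (SD, n = 4), which was a log2 fold change of -0.37 (SE 0.11, FDR = 0.0497). The call was at the edge of the threshold and was lost in each of the 8 fits with a library left out (FDR = 0.0519 to 0.127), with the same direction in all. The start of *Lnx2* is 774 bases from that of *Polr1d*, which is read the other way and encodes a subunit shared by RNA polymerases I and III.

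The sequence before *Lnx2* held 1 GGGCGG and 2 CCAAT matches, and that before *Polr1d* held none of the 6 motifs. *Polr1d* was at 43.5, 48.9, 42.5 and 41.5 CPM in WT and 45.2, 47.5, 52.4 and 51.9 CPM in KL-/- samples, overlapping, with a positive log2 fold change of 0.16 (SE 0.075, FDR = 0.178). No other pair of neighbours among the 32 had opposite strands and start sites within 1 kb.

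*Wasf3* and *Usp12* did not overlap between genotypes and did not pass the test. *Wasf3* (chr5:146385006-146471125, plus strand, 4.48 Mb away), a WAVE protein that promotes actin branching, was at 0.898, 1.16, 0.953 and 0.932 CPM in WT and 0.488, 0.811, 0.414 and 0.226 CPM in KL-/- samples. It was low in both, and its log2 fold change was -1.05 (SE 0.33, FDR = 0.062), with an FDR of 0.0179 without KL-/- replicate 2, the highest of its genotype. *Usp12* (chr5:146734812-146794956, minus strand, 4.16 Mb away), a deubiquitinase, was at 31.2, 30.1, 28.1 and 32.3 CPM in WT and 25, 25.4, 27.4 and 26.7 CPM in KL-/- samples. Its log2 fold change was -0.22 (SE 0.067, FDR = 0.0556), and it did not pass in any fit with a library left out. Of 4 genes for its relatives and their WD40 partners, the paralog *Usp46* rose (log2 fold change 0.73, FDR = 0.0223), and none of 7 measured WAVE complex genes passed.

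The 9 remaining genes of this stretch had log2 fold changes between -0.27 and 0.15 and an FDR of 0.242 or more. *Flt1*, the VEGF receptor 1 of endothelium that binds VEGF-A without strong signalling, had means of 83 ± 4.73 (WT) and 92.4 ± 14.6 CPM (KL-/-; SD, n = 4), which was a log2 fold change of 0.15 (SE 0.11, FDR = 0.339). Of 9 other VEGF ligands and receptors measured, 4 fell and none rose. These were *Kdr*, the main signalling receptor (-0.90, FDR = 0.00781), the ligand *Vegfc* (-0.75, FDR = 0.0164) and the co-receptors *Nrp1* (-0.53, FDR = 0.0129) and *Nrp2* (-0.56, FDR = 0.0283). Of 10 endothelial markers, *Kdr* again was the only one to pass, 9 were negative, none was at 0, and the sum was 565 to 842 CPM in WT and 522 to 585 CPM in KL-/- samples. The difference between *Flt1* and *Kdr* in their response was not tested.

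*Pomp*, the proteasome maturation protein, was at 58.3, 57.9, 56.8 and 58.2 CPM in WT and 53.8, 64.4, 63.7 and 66 CPM in KL-/- samples. KL-/- replicate 1 lay below all WT samples and the other 3 above them (log2 fold change 0.10, SE 0.07, FDR = 0.351), and none of 7 measured proteasome assembly genes passed. *Cdk8*, the kinase of the Mediator complex, stood at 15.4 ± 1.31 and 15.9 ± 0.817 CPM (FDR = 0.749), whereas among 6 other genes of that module its paralog *Cdk19* fell (log2 fold change -0.88, FDR = 0.00244) and *Med12* rose (0.50, FDR = 0.0076). *Slc7a1*, a transporter of arginine and lysine, stood at 6.66 ± 1.03 and 5.49 ± 0.836 CPM (FDR = 0.242). Of 6 other SLC7 family genes and *Slc3a2* measured together, 1 rose, its paralog *Slc7a2* (log2 fold change 0.76, FDR = 0.00729).

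*Gtf3a*, which encodes TFIIIA of the 5S rRNA genes, and *Mtif3*, a mitochondrial translation initiation factor, face each other and share exons, 60.2% of the counted bases of *Gtf3a* and 29.5% of those of *Mtif3*. Without strand their reads cannot be told apart. *Gtf3a* stood at 25 ± 0.738 and 26.3 ± 2.25 CPM (FDR = 0.518) and *Mtif3* at 20.4 ± 1.25 and 18.6 ± 2.53 CPM (FDR = 0.368). Of 32 other subunits of RNA polymerases I and III and their factors measured, 3 rose (*Polr3gl* with 0.59, *Polr3e* with 0.41 and *Brf1* with 0.35) and none fell. None of 8 mitochondrial translation factors passed. *Rnf6*, a ubiquitin ligase and the farthest gene at 4.73 Mb, stood at 58.7 ± 2.04 and 61.3 ± 1.38 CPM (FDR = 0.439), *Slc46a3*, a lysosomal transporter, at 9.64 ± 1.18 and 10.2 ± 1.24 CPM (FDR = 0.671), and *Rasl11a*, a small GTPase of the Ras family, at 1.15 ± 0.522 and 0.986 ± 0.258 CPM (FDR = 0.687).

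To compare levels between genes, CPM was divided by the counted length in kilobases. *Pomp* was the highest in WT muscle at 78.8 CPM per kilobase, with samples from 77.4 to 79.5, above all other genes of the region. *Hmgb1*, at 43.1, and *Ubl3*, at 42.2, overlapped each other, and *Polr1d*, at 26.1, *Gtf3a*, at 19.3, *Rnf6*, at 16.2, and *Flt1*, at 13.2, followed without overlap between neighbours in the order. From *Uspl1*, at 9.41, downward most neighbours overlapped. The lowest levels were those of *Gm8615*, at 0.355, *Gm3704*, at 0.193, and *Brca2*, at 0.161, which overlapped. In KL-/- muscle *Gm3704* stood at 0.954 CPM per kilobase.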

How the data were processed

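RNA libraries of TA muscle, 4 WT and 4 KL-/-, were analysed from the raw counts per gene that the authors deposited. Per the labels and the study's methods, FastQC, STAR, featureCounts and edgeR were used on mm10. The annotation version and the use of strand in counting are not given in the sources used here. The deposited counts covered 12551 genes, with total counts of 20860262 to 29273758.

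The members and gene lists were chosen with earlier results of these data known. The 32 genes were taken by the rule of position. Counts were tested over all genes in R 4.3.3 with edgeR 4.0.16, with TMM factors (1.02 to 1.05 in WT and 0.95 to 0.98 in KL-/-), the default filter on low counts, which kept all genes, genotype as the only term, the quasi-likelihood test (legacy setting off) and Benjamini-Hochberg adjustment over all genes. The standard error was derived from the log2 fold change and the F statistic. Values per sample were given for members with an FDR under 0.05, members whose genotypes did not overlap, the 3 nearest to *Kl* on each side, the 3 highest per kilobase and neighbours with starts within 1 kb on opposite strands. Promoter sequences and positions came from RefSeq GRCm38.p6 and exon overlaps from GENCODE. The tests were checked on simulated counts. Alternatives were DESeq2 size factors within edgeR, library totals, DESeq2 1.42.0, the edgeR likelihood ratio test, the edgeR 3 quasi-likelihood test (chosen after seeing the data), limma-voom (limma 3.58.1), other filters and windows, a replicate block, and leaving out each library. P-values set the difference between genotypes against the spread between these mice.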

Additional observations from a re-analysis of the deposited data

Results flagged for a closer look

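In 1 of the 64 groups of 4 values tested (32 genes in each genotype), a sample lay far from the others. *Slc46a3*, a lysosomal transporter gene, was at 10.5, 10.2 and 10 CPM in WT replicates 1 to 3 and at 7.89 CPM in WT replicate 4. The gap below the other samples was 0.834 of the range of the group, above Dixon's 95% critical value for 4 samples. Chance flags about 1 in 20 such groups. The KL-/- samples lay at 8.75 to 11.6 CPM. Without WT replicate 4 the log2 fold change was -0.003, against 0.084 with it.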

How the results depend on the processing

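Numbers are shared by WT and KL-/- replicates, and the deviations of same-numbered samples correlated at -0.146, 0.181, -0.368 and 0.017. These correlations did not share a sign, and they cannot settle whether the mice were paired. With the replicate block 2 members had an FDR under 0.05 (*Gm3704* with 0.0241 and *B3glct* with 0.0448), beside 5.35% of all genes. With a library left out the count of members was 1 to 9, beside 6.07% to 22.0% of all genes. It was 3 of 8 in a window of 1 Mb, 7 of 18 in 2.5 Mb and 13 of 76 in 10 Mb, beside 14% of all genes. Library totals, DESeq2 and the likelihood ratio test each gave 11 members, where 20.9%, 19.6% and 16.9% of all genes passed. The remaining tools, factors and filters gave 8 or 9, beside 13.7% to 14.1%. With at least 10 counts in every sample 28 members were tested, and *Gm3704*, *Wasf3*, *Rasl11a* and *Gm8615* were not. Library totals shifted the median of all genes to -0.134 and gave 3 members higher and 8 lower, with 18.8% of all calls higher against 52.4%. *Fry* then missed the threshold (0.21, FDR = 0.0962), and *Wasf3*, *Usp12* and *Medag* passed it. DESeq2 added *Usp12* and *Medag*, the likelihood ratio test *Wasf3* and *Medag*, and *Lnx2* was lost with DESeq2 factors (FDR = 0.0563) and the edgeR 3 test (FDR = 0.0524). The median size of log2 fold change under 1 Mb was 0.212 with limma-voom and 0.21 to 0.313 with a library left out. Between 1 and 2.5 Mb it was 0.317 with at least 10 counts and 0.333 to 0.486 with a library left out, and between 2.5 and 5 Mb 0.136 to 0.185. Over all members it was 0.287 in a window of 2.5 Mb and 0.199 in 10 Mb. With library totals *Pomp* stood at 82.1 CPM per kilobase. None of the 9 called members changed direction in any alternative that tested it. Directions of members without a call turned under library totals for *Rnf6* (-0.056), *Cdk8* (-0.073), *Gtf3a* (-0.042), *Pomp* (-0.02), *Slc46a3* (-0.035) and *Gm15408* (-0.11). *Gm15408* also turned with limma-voom (-0.0049) and the block (-0.0036). With a library left out the log2 fold change was -0.0057 to 0.092 for *Cdk8*, -0.003 to 0.16 for *Slc46a3*, -0.15 to 0.086 for *Gm15408*, -0.046 to 0.46 for *Brca2* and -0.12 to 0.041 for *N4bp2l2*. The causes of these changes were not tested.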

Other observations

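Markers of Schwann cells and of pericytes and smooth muscle were measured as well. Of 6 Schwann cell markers 3 rose in KL-/- muscle, among them *Sox10*, the glial transcription factor (log2 fold change 0.95, FDR = 0.0125 with edgeR), and the myelin gene *Mbp* (0.62, FDR = 0.0251). None fell, the median was 0.68, and the sums of 52.7 to 93.8 CPM in WT and 97.9 to 119 CPM in KL-/- samples did not overlap. None of 5 pericyte and smooth muscle markers passed, with sums of 296 to 456 CPM in WT and 320 to 402 CPM in KL-/- samples. The 14 genes with a GC box in the sequence before their start included 3 of the 8 genes with an FDR under 0.05 that had such a sequence (*Alox5ap* had no entry), *Fry*, which rose, and *Pds5b* and *Lnx2*, which fell.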
